A study of Mus musculus with 4 samples.

Results

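Matrix metalloproteinases (MMPs) are zinc-dependent enzymes that cut collagens, proteoglycans and other proteins outside the cell, and tissue inhibitors of metalloproteinases (TIMPs) block them by binding the active site. Most MMPs are secreted as inactive precursors that other proteases activate, so a transcript level does not measure enzyme activity. In early mouse development MMPs and TIMPs are known for their part in implantation and matrix remodelling, and cultured fibroblasts are a well-known source of several of them. The genes described here are 9 of the 47633 genes in the deposited table, found by symbol: Mmp2, Mmp3, Mmp9, Mmp10, Mmp13 and Mmp14, and the inhibitors Timp1, Timp2 and Timp3. The set was chosen by symbol with its FPKM values in both comparisons with ES cells already known, so these values are given as a description without a test.

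The study sequenced RNA of mouse ES (embryonic stem) cells, strain 129S2/SvPas, and of their derivatives. There were 4 libraries. The library labelled embryoid body (EB) came from ES cells kept for 5 days without leukaemia inhibitory factor (LIF), the cytokine that holds mouse ES cells undifferentiated. A further library, labelled LIF, came from ES cells kept for 2 days without it and is called the 2-day library here. The reference was a pair of libraries of ES cells grown with LIF, ES 1 and ES 2. All cells derive from cultures on mitomycin C-treated C57/BL6 embryonic fibroblasts, and the labels do not say whether these feeder cells were removed before RNA extraction, nor that ES 1 and ES 2 came from separate cultures. No genetic change is named, and neither derived library has a replicate.

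Values are FPKM, fragments scaled to gene length and sequencing depth, as the authors deposited them, so levels of different genes can be set side by side per length. Estimated depth was 26.3 M fragments in the EB library, 17.9 M in the 2-day library, 31.2 M in ES 1 and 27.2 M in ES 2. The 2-day library stands apart in composition, since its 10 most abundant genes held 44.7% of the FPKM sum, against 17.4% in the EB library and 9.8% and 15.5% in the ES libraries. The summed level of 8 pluripotency markers was 2520 FPKM in the EB library and 1960 FPKM in the 2-day library, against 1830 to 1840 FPKM in ES cells. Much of each sum was Dppa5a, at 1140 FPKM in the EB library and 805 FPKM in the 2-day library, against 561 and 577 FPKM in ES cells. In the EB library 6 of the 8 markers were above both ES libraries and 2 below. In the 2-day library 2 were above and 5 below. The EB label is used here as a name. Over all 15676 genes tested ES 1 and ES 2 had a Pearson r of 0.956 across genes, with 2046 genes at least 2-fold apart, and over the 6808 strand-clear genes defined below the r was 0.997, with 108 genes apart.

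Before the values, the DNA before the transcript start is shown for 3 metalloproteinase genes that lie together on chromosome 9 and for Mmp14, because the 3 share a feature that Mmp14 lacks. The sequences are the 250 bases before the RefSeq transcript start on GRCm38.p6, written 5′ to 3′ on the gene's own plus strand. Capitals of 7 letters mark the motif TGANTCA, which the AP-1 factors FOS and JUN can bind and which reads the same on both strands, and capitals of 6 letters mark TATAAA, the TATA box, searched on the gene's strand. The windows are chr9:7445572-7445821 for Mmp3, chr9:7502092-7502341 for Mmp10, chr9:7272264-7272513 for Mmp13 and chr14:54431348-54431597 for Mmp14.
Mmp3: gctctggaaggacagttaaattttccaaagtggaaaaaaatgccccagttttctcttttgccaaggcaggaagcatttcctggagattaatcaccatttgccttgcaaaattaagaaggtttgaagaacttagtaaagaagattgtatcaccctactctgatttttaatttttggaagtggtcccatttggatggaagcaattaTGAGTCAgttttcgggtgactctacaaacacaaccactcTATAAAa
Mmp10: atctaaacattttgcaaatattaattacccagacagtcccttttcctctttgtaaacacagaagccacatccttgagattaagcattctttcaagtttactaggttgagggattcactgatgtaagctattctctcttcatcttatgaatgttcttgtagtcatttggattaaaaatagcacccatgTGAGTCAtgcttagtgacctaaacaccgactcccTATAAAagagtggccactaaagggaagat
Mmp13: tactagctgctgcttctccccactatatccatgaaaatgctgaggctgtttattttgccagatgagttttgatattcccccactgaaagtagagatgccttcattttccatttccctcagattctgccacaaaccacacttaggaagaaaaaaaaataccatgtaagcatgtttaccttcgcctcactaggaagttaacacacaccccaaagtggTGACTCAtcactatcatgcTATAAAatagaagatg
Mmp14: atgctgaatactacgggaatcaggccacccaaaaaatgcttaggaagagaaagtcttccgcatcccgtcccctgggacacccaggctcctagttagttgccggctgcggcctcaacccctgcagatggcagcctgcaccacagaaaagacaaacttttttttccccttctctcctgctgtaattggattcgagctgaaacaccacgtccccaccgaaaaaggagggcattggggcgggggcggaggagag

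The AP-1 motif was TGAGTCA in Mmp3, where it lay 46 to 40 bases before the start, and in Mmp10, where it lay 63 to 57 bases before it. In Mmp13 it was TGACTCA, 35 to 29 bases before the start. Each of these 3 windows also held 1 TATAAA, between the AP-1 motif and the start. The windows of Mmp14, Timp1, Timp2 and Timp3 held neither motif. Sequence was matched for 7 of the 9 genes, the others being Mmp2 and Mmp9. Of all 32851 RefSeq promoter windows of this length, 6.75% held TGANTCA, 7.59% held TATAAA and 0.791% held both. Across the whole family, TGANTCA was found for 8 of 10 MMP genes of the chromosome 9 cluster and for 0 of 12 matched MMP and TIMP genes elsewhere. A gene counted if any of its windows held a match, while the share of 6.75% is per window. In the cluster Mmp7 and Mmp12 had more than 1 window. For Mmp12 the match lay in chr9:7347124-7347373 and not in chr9:7344147-7344396, the window at the start of the gene. The 8 include Mmp7 and Mmp20, which were listed at 0 in all 4 libraries, so the motif did not separate detected from undetected genes of the cluster. A match is a description of the letters and not evidence of binding.

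**Figure D1:**
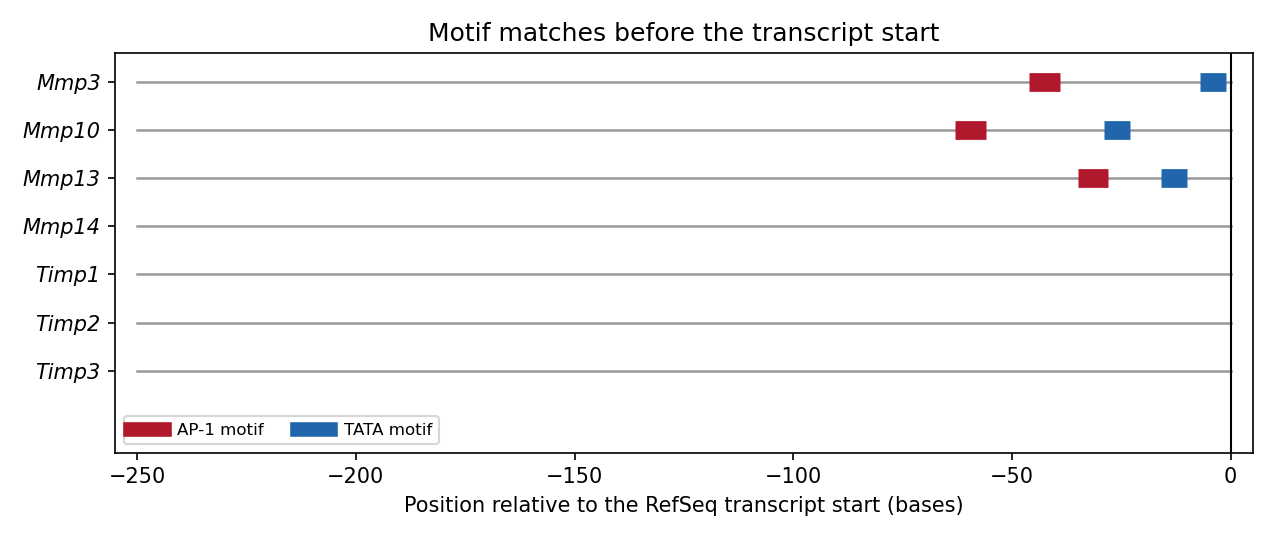
Motif matches in the 250 bases before the RefSeq transcript start of the 7 genes with a matched sequence; the horizontal axis is the position in bases relative to the start, red blocks are TGANTCA and blue blocks TATAAA. Mmp3, Mmp10 and Mmp13 hold both, with the red block farther from the start, and the other 4 genes hold neither.

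Mmp3 and Mmp10 encode the stromelysins, which cut proteoglycans, laminin and fibronectin, and Mmp3 can activate other MMP precursors. Mmp3 was at 87.4 FPKM in the EB library and 9.50 FPKM in the 2-day library, against 0.319 and 0.419 FPKM in ES 1 and ES 2. Both derived libraries thus lay far above both ES libraries, which were close to each other. The log2 difference on log2(FPKM + 1) was 6.01 for EB minus ES and 2.94 for the 2-day library minus ES, and the EB level was 237 times the ES mean of 0.369 ± 0.0711 FPKM (SD, n = 2). At the estimated depth the ES values correspond to about 18 fragments in ES 1 (95% exact Poisson interval 10.7 to 28.4) and 21 in ES 2 (13.0 to 32.1), and the EB value to about 4136, intervals that cover counting error only. Mmp10 was at 21.7 FPKM in the EB library and 11.8 FPKM in the 2-day library, against 0.572 and 0.394 FPKM in ES cells, with log2 differences of 3.94 and 3.11 in the same order. Both derived libraries were again above both ES libraries, and the EB library was 1.83 times the 2-day library for Mmp10 and 9.2 times for Mmp3. The order of this pair also differed, with Mmp10 above Mmp3 in the 2-day library and Mmp3 above Mmp10 in the EB library. Of all runs of 50 bases in the Mmp3 transcript 7.99% also occur in Mmp10, and 8.37% of those in Mmp10 occur in Mmp3, and how reads from those stretches were split is uncertain. In a bulk sample, more cells that express a gene and more RNA per cell cannot be told apart, here and for each gene that follows.

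Mmp9 and Mmp2 encode the gelatinases, which cut denatured collagen and basement membrane collagen. Mmp9 was at 15.8 FPKM in the EB library and 2.01 FPKM in the 2-day library, against 0.331 and 0.272 FPKM in ES cells. It followed Mmp3 in being highest by a wide margin in the EB library, 7.85 times the 2-day library, with log2 differences from ES of 3.69 for EB and 1.21 for 2 days. Mmp2 was at 10.4 FPKM in the EB library and 7.22 FPKM in the 2-day library, against 6.52 and 6.56 FPKM in ES cells. Unlike Mmp9, Mmp2 was already present in ES cells, and its log2 differences were 0.59 and 0.12, both under 2-fold. The SD between the ES libraries was 0.00624, which gives no spread for a single derived library. The 2-day value corresponds to about 437 fragments (exact Poisson interval 397 to 480), and the ES 1 value to about 687 (637 to 740). Scaled to FPKM these intervals overlap, so the difference of 0.12 was not beyond counting error. Mmp9 was thus below Mmp2 in the 2-day library and in both ES libraries, and above it in the EB library.

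Mmp13 encodes collagenase 3, an enzyme that cuts fibrillar collagen, and Mmp14 encodes a membrane-anchored MMP that activates the precursor of MMP2 at the cell surface. Mmp13 was at 8.21 FPKM in the EB library and 3.74 FPKM in the 2-day library, against 0.579 and 0.726 FPKM in ES cells. Both derived libraries lay above the ES pair, with log2 differences of 2.48 for EB and 1.52 for 2 days. Mmp14 was at 20.1 FPKM in the EB library and 30.6 FPKM in the 2-day library, against 25.2 and 27.2 FPKM in ES cells. It was the MMP with the highest level in ES cells and in the 2-day library, and lay below both ES libraries in the EB library (log2 difference -0.37) and above both in the 2-day library (0.22).

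**Figure D2:**
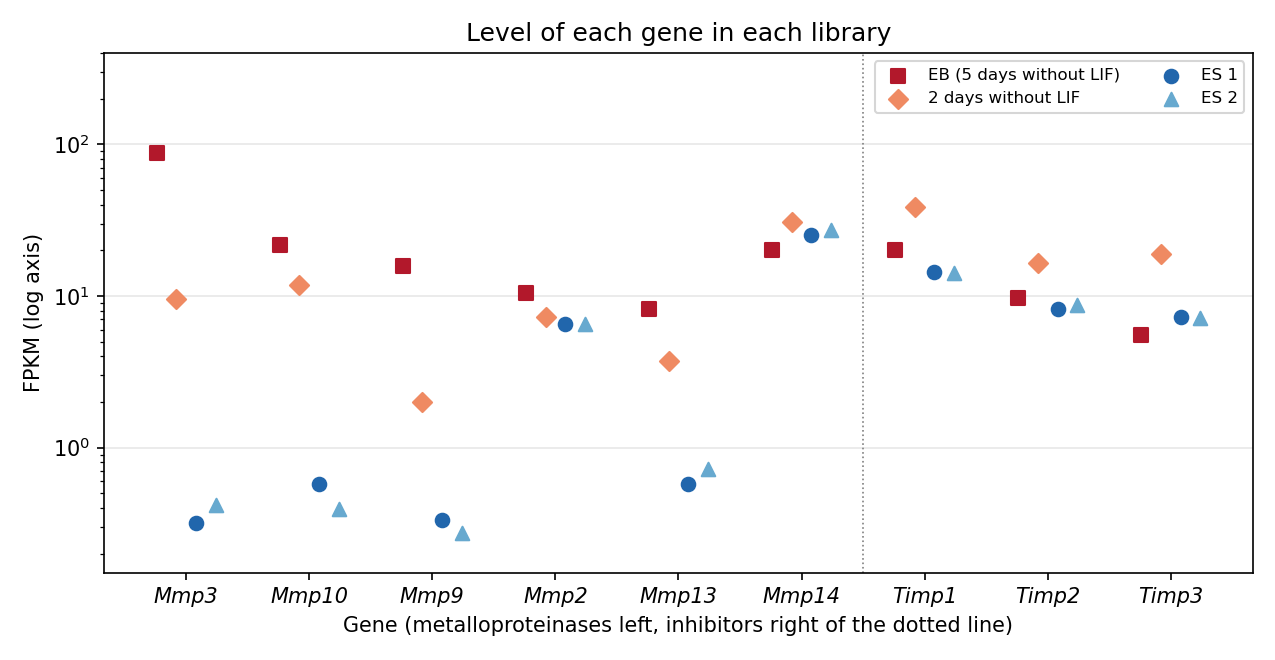
FPKM of the 9 genes in each library on a log axis; squares are the EB library, diamonds the 2-day library, and circles and triangles ES 1 and ES 2. Mmp3, Mmp10, Mmp9 and Mmp13 sit below 1 FPKM in both ES libraries and above it in both derived libraries, while the other 5 genes are at 5 FPKM or more throughout.

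Timp1 encodes a soluble inhibitor of most secreted MMPs. Timp1 was at 20.2 FPKM in the EB library and 38.7 FPKM in the 2-day library, against 14.4 and 14.2 FPKM in ES cells. Both derived libraries were above the ES pair, and the 2-day library was the higher, with log2 differences of 0.47 for EB and 1.38 for 2 days. Timp2, whose product inhibits MMPs and also bridges MMP14 to the MMP2 precursor, was at 9.73 FPKM in the EB library and 16.6 FPKM in the 2-day library, against 8.15 and 8.73 FPKM in ES cells. Its log2 differences were 0.19 and 0.90, and the 2-day library was 1.97 times the ES mean, just under the 2-fold size used below. Timp3 encodes an inhibitor bound to the matrix that also blocks several ADAM proteases. It was at 5.49 FPKM in the EB library and 19.0 FPKM in the 2-day library, against 7.23 and 7.13 FPKM in ES cells, with log2 differences of -0.33 and 1.29.

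The counting of strand is not stated, which bears on both Timp1 and Timp3. Timp1 lies inside Syn1, a synapsin gene on the opposite strand, with 0 nt of shared exon, and Syn1 was at 2.26 FPKM in the EB library and 2.33 FPKM in the 2-day library, against 1.64 and 1.62 FPKM in ES cells. Timp3 lies inside Syn3 on the opposite strand, with 1733 nt of its 8144 nt of exon shared. Syn3 was at 0.288 FPKM in the EB library and 8.53 FPKM in the 2-day library, against 0.643 and 0.708 FPKM in ES cells, so it stood above and below the ES pair in the same libraries as Timp3. Reads of Timp3 and Syn3 cannot be told apart over the shared exons, and the level of Timp3 in the 2-day library is uncertain to that extent. For the other 7 genes no annotated gene runs across them on the other strand.

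In mm10, by GENCODE release M21, Mmp13 (chr9:7272514-7283331), Mmp3 (chr9:7445822-7455975) and Mmp10 (chr9:7502352-7510240) are on the plus strand of chromosome 9. Mmp9 (chr2:164940780-164955850), Mmp2 (chr8:92827291-92853420), Mmp14 (chr14:54431612-54445364), Timp1 (chrX:20870166-20874735) and Timp3 (chr10:86300372-86349506) are on plus strands, and Timp2 (chr11:118301069-118355740) is on the minus strand.

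The 9 genes fell into 2 kinds by their ES level. Mmp3, Mmp10, Mmp9 and Mmp13 together summed to 133 FPKM in the EB library and 27.1 FPKM in the 2-day library, against 1.80 and 1.81 FPKM in the ES libraries. Mmp2 and Mmp14 together summed to 30.5 FPKM in the EB library and 37.8 FPKM in the 2-day library, against 31.8 and 33.8 FPKM in ES cells. The 3 inhibitors summed to 35.5 FPKM in the EB library and 74.3 FPKM in the 2-day library, against 29.8 and 30.0 FPKM in ES cells. The summed MMP level was 4.61 times the summed TIMP level in the EB library and 0.874 times in the 2-day library, against 1.13 and 1.18 times in the ES libraries. Without Timp3, whose 2-day level is uncertain, the ratio was 5.46 in the EB library and 1.17 in the 2-day library, against 1.49 and 1.55 in the ES libraries, so that the 2-day ratio was above 1 and still the lowest. Mmp3 alone made up 53.5% of the MMP sum in the EB library and 14.6% in the 2-day library, against 0.95% and 1.18% in ES cells. Without Mmp3 the MMP sum of the EB library was 76.1 FPKM, still above the 35.5 FPKM of its inhibitors. Mmp14 made up 12.3% and 47.2% of the sum in the EB and 2-day libraries, against 75.2% and 76.5% in ES cells. These are ratios of transcript levels over 4 libraries, given as a description.

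**Figure D3:**
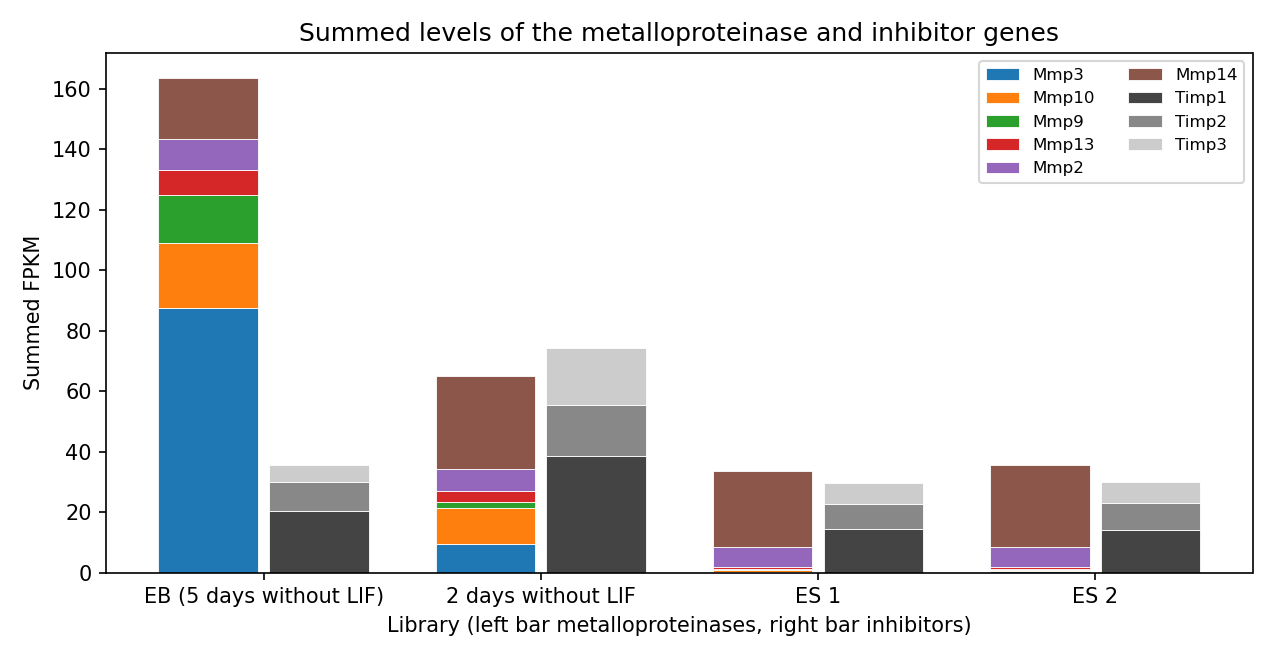
Summed FPKM in each library, with the 6 metalloproteinase genes stacked in the left bar and the 3 inhibitor genes in the right bar. The left bar is the taller in the EB library (163 against 35.5 FPKM), the right bar in the 2-day library (64.9 against 74.3 FPKM, or 55.4 FPKM without Timp3, which would make it the shorter), and the bars are close in ES cells.

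In the EB library the order of levels was Mmp3, Mmp10, Timp1, Mmp14, Mmp9, Mmp2, Timp2, Mmp13 and Timp3, from high to low. After 2 days it was Timp1, Mmp14, Timp3, Timp2, Mmp10, Mmp3, Mmp2, Mmp13 and Mmp9. The ES mean had the order Mmp14, Timp1, Timp2, Timp3, Mmp2, Mmp13, Mmp10, Mmp3 and Mmp9. Among neighbours in the ES order, the ranges of Mmp10 and Mmp3 overlapped, as did those of Mmp3 and Mmp9. The derived libraries have no spread of their own, so close neighbours such as Timp1 and Mmp14 in the EB library (20.2 and 20.1 FPKM) are not placed apart.

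By size alone, 4 of the 9 genes in the EB library were at least 2-fold above both ES libraries (Mmp3, Mmp10, Mmp9 and Mmp13) and 0 were 2-fold below, beside 4.78% above and 3.23% below among the 15676 genes that reached 1 FPKM in any library. In the 2-day library 6 of the 9 were at least 2-fold above, the same 4 with Timp1 and Timp3, and 0 below, beside 12.4% and 2.88% of all genes. The members were chosen with these differences known, so nothing is read from the counts. Of the 7 strand-clear members, 4 were at least 2-fold above in each derived library (Mmp3, Mmp10, Mmp9 and Mmp13), beside 3.17% of all strand-clear genes above and 2.61% below for EB, and 4.82% above and 1.76% below for 2 days. Set against ES 1 alone, Timp2 also reached 2-fold in the 2-day library, which made 7. The median log2 difference of the 9 was 0.59 for EB and 1.29 for 2 days, beside medians of -0.01 and 0.04 over all genes. Ranked by log2 difference from ES among the 15676 genes, Mmp3 was at rank 12 for EB and 210 for 2 days, and Mmp10 at rank 47 and 178. All 9 genes passed the filter of 1 FPKM, Mmp3, Mmp10, Mmp9 and Mmp13 only through the derived libraries.

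**Figure D4:**
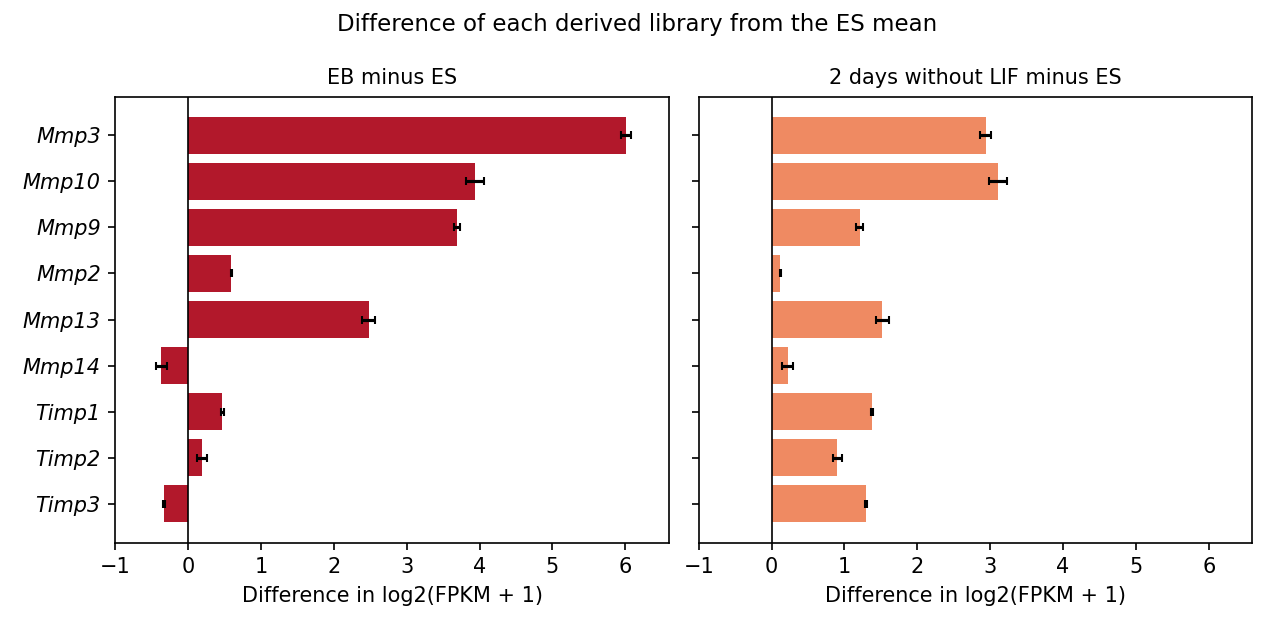
Difference in log2(FPKM + 1) from the ES mean for the EB library (left panel) and the 2-day library (right panel), 1 bar per gene, with the SD of the 2 ES libraries as error bars. The left panel runs from 6.01 for Mmp3 to -0.37 for Mmp14, and in the right panel all 9 bars are above 0.

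Between the derived libraries, 5 of the 9 genes were higher in the EB library than in the 2-day library, namely Mmp3, Mmp10, Mmp9, Mmp2 and Mmp13, with ratios from 1.44 for Mmp2 to 9.2 for Mmp3. Mmp14 and the 3 inhibitors were lower in the EB library, with ratios of 0.656 for Mmp14, 0.522 for Timp1, 0.585 for Timp2 and 0.289 for Timp3. With 1 library each, these ratios have no replicate check.

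The genes most like Mmp3 in level were sought among 10157 other genes that reached 5 FPKM in any library, by Euclidean distance over the 4 libraries on log2(FPKM + 1). The nearest was Snora43, a small nucleolar RNA gene, at a distance of 0.852, with 64.7 and 7.05 FPKM in the EB and 2-day libraries, against 0.0164 and 0 FPKM in ES cells. Next came Mmp10 (distance 2.00), Cck, which encodes the peptide hormone cholecystokinin (2.28), Snora52 (2.54) and Igfbp5, which encodes a binding protein for insulin-like growth factors (2.69). Cck was at 17.2 and 8.56 FPKM in the EB and 2-day libraries, against 0.378 and 0.512 FPKM in ES cells. Igfbp5 was at 15.6 and 21.9 FPKM, against 0.615 and 0.697 FPKM, and so unlike Mmp3 was higher in the 2-day library than in the EB library. Snora43 and Snora52 have gene models of 127 and 137 nt, for which FPKM of a fragmented library is unreliable. With 4 libraries, of which 2 are a pair, such likeness describes these samples only.

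The chromosome 9 cluster holds 10 MMP genes in 427 kb (chr9:7272514-7699585), in the order Mmp13, Mmp12, Mmp1b, Mmp3, Mmp1a, Mmp10, Mmp8, Mmp27, Mmp20 and Mmp7. Detected and undetected genes took separate ends of it: the 6 genes from Mmp13 to Mmp10 all had signal in the EB library, and Mmp27, Mmp20 and Mmp7 were listed at 0 in all 4 libraries. Mmp12, which encodes macrophage elastase, was at 2.89 FPKM in the EB library and 0.128 FPKM in the 2-day library, against 0.0209 and 0.00824 FPKM in ES cells, the ES 2 value being under the 0.0152 FPKM that 3 fragments give there. In GENCODE M21 Mmp1a is listed as a polymorphic pseudogene and Mmp1b as protein-coding. Mmp1a and Mmp1b were at 0.448 and 0.20 FPKM in the EB library and listed at 0 in the 2-day library and in ES cells. Part of their sequence is shared (11.8% of the runs of 50 bases in Mmp1b occur in Mmp1a), and how those reads were split is uncertain. Mmp1b also overlaps Mmp12 on the opposite strand. The use of strand is not stated, so the signal of Mmp1b in the EB library is uncertain. At these depths 3 fragments correspond to 0.0474 to 0.0826 FPKM for Mmp1a in the libraries at 0. Mmp8, which encodes neutrophil collagenase, was at 0.0157 FPKM in the EB library and 0.0467 FPKM in the 2-day library, under the level of 3 fragments in both, against 0 in ES cells. The nearest protein-coding genes on either side did not share the pattern of Mmp3. Dcun1d5, which encodes a factor of cullin neddylation, was at 19.4 and 25.9 FPKM in the EB and 2-day libraries, against 23.3 and 23.9 FPKM in ES cells. Tmem123, which encodes a membrane protein, was at 9.29 and 11.8 FPKM, against 12.7 and 12.6 FPKM in ES cells.

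**Figure D5:**
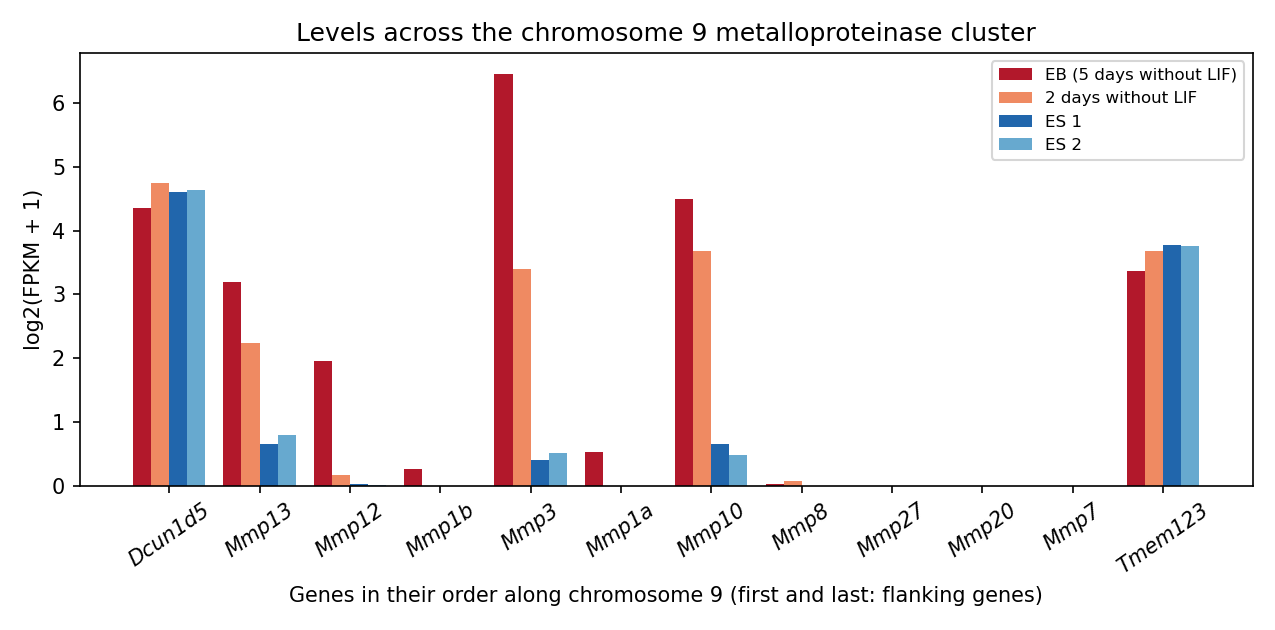
Level on log2(FPKM + 1) of the 10 MMP genes of the chromosome 9 cluster and the nearest protein-coding gene on each side, in their order along the chromosome; bars are the EB library, the 2-day library, ES 1 and ES 2. The EB bar is the tallest for 6 genes, from Mmp13 to Mmp10, and no bar is visible for Mmp27, Mmp20 and Mmp7.

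The rest of the family comprised 17 further MMP genes and Timp4, of which 7 reached 1 FPKM in at least 1 library and were tested with limma, a linear model fitted across all 15676 genes. The ES pair is its only source of spread. Calls required an adjusted p under 0.05 and a log2 change of at least 1. For EB against ES limma called 1 higher and 0 lower, and 6 had an unadjusted p under 0.05; of all genes, 0.396% were called higher, 0.0% lower, and 27.7% had an unadjusted p under 0.05. The gene was Mmp12 (log2 change 1.94, limma SE 0.02, adjusted p = 0.0448), a call lost with a pseudocount of 0.1 (adjusted p = 0.0791) and without a variance trend (adjusted p = 0.134), the range over its alternatives being 0.0265 to 0.134. Mmp12 passed the 1 FPKM filter only through the EB library, and Mmp19 only through the derived libraries, so both were tested because they are high there and their calls are no support for a change. For 2 days against ES limma called 1 higher and 0 lower, and 4 had an unadjusted p under 0.05; of all genes, 7.32% were called higher, 0.357% lower, and 37.2% had an unadjusted p under 0.05. That gene was Mmp19, which encodes an MMP with broad matrix substrates, at 3.01 FPKM in the EB library and 1.52 FPKM in the 2-day library, against 0.139 and 0.143 FPKM in ES cells (2-day log2 change 1.14, limma adjusted p = 0.0109). Mmp12 and Mmp19 overlap genes on the opposite strand, Mmp19 with Tmem198b at 2.63 FPKM in the 2-day library, against 1.78 and 1.90 FPKM in ES cells, so their levels are less certain. By size, Mmp12 and Mmp19 were at least 2-fold above both ES libraries in either derived library, and Mmp23 was 2-fold below in the EB library, at 0.472 FPKM against 1.11 and 1.32 FPKM. Mmp11 (stromelysin 3) was the most abundant of these genes, at 10.2 and 13.5 FPKM in the EB and 2-day libraries, against 15.4 and 15.8 FPKM in ES cells.

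Activators, inhibitors and partners of MMPs formed a list of 21 genes, of which 18 were tested. In the EB library limma called 0 of them in the fit over all genes, and 11 had an unadjusted p under 0.05, beside 27.7% of all genes. By size 5 were at least 2-fold higher and 3 lower, beside 4.78% and 3.23% of all genes. Of the 5, Itgb3, Plat and Pcsk5 were under 1 FPKM in both ES libraries and passed the filter only through the derived libraries. Their place in that count is no support for a change. The list's median log2 difference was 0.21 beside -0.01 over all genes. Thbs1 (thrombospondin 1, which can bind the MMP2 precursor) was at 11.9 FPKM in the EB library and 248 FPKM in the 2-day library, against 68.3 and 72.5 FPKM in ES cells. In the 2-day library limma called 4 of the 18 higher and 0 lower, beside 7.32% and 0.357% of all genes. The list median was 0.75 beside 0.04. Among the 4 were Thbs2 (log2 change 2.51), Thbs1 (1.80) and Cd44, a hyaluronan receptor that can dock MMP9 at the cell surface (1.67), with limma adjusted p from 0.0148 to 0.028. Strand-clear genes are protein-coding genes and lncRNAs of 1000 nt of exon or more that no opposite-strand gene runs across. Among them limma called 3 of 11 higher and 1 lower in the EB library (1.53% and 0.778% of all 6808 such genes). In the 2-day library it called 3 of 11 higher and 0 lower (2.44% and 0.602% of them). Of the 3 higher in the EB library, Itgb3 and Plat were under 1 FPKM in both ES libraries. They passed the filter only through the derived libraries, Plat through the EB library alone, so their calls are no support for a change.

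For ADAM and ADAMTS proteases, relatives of the MMPs that shed membrane proteins and cut proteoglycans, 15 of 30 genes were tested. By limma over all genes 0 were called in either comparison. For EB and 2 days 8 and 7 had an unadjusted p under 0.05, beside 27.7% and 37.2% of all genes. By size 1 was 2-fold higher and 2 lower in the EB library, beside 4.78% and 3.23% of all genes. In the 2-day library 2 were higher and 0 lower, beside 12.4% and 2.88%. The list medians were 0.28 and 0.52, beside -0.01 and 0.04 over all genes. Adam12 was at 0.0236 FPKM in the EB library and 1.67 FPKM in the 2-day library, against 1.22 and 1.29 FPKM in ES cells. It was the 1 call, lower in EB, among 6 strand-clear members, beside 0.778% of all strand-clear genes called lower. Adam8 was at 1.38 and 0.718 FPKM in the EB and 2-day libraries, against 0.487 and 0.635 FPKM in ES cells. Adamts5, an aggrecan-cutting enzyme, was at 0.0985 and 1.30 FPKM, against 0.32 and 0.303 FPKM, and Adamts8 at 1.39 and 2.17 FPKM, against 0.861 and 0.914 FPKM. Adam8 was the higher gene by size in the EB library, and Adamts5 and Adamts8 those in the 2-day library. All were under 1 FPKM in both ES libraries and passed the filter only through the derived libraries. The higher counts are therefore no support for a change.

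Matrix proteins that MMPs can cut gave 27 tested genes of 29. In the EB library limma called 0 in the fit over all genes, and 18 had an unadjusted p under 0.05, beside 27.7% of all genes. By size 7 were 2-fold higher and 1 lower (median 0.21), beside 4.78% and 3.23% of all genes. Spp1, which encodes osteopontin, was at 730 FPKM in the EB library and 170 FPKM in the 2-day library, against 108 and 111 FPKM in ES cells. Dcn, which encodes the proteoglycan decorin, was at 11.1 and 6.68 FPKM, against 0.695 and 0.664 FPKM. Both were called higher in the EB library among strand-clear genes. There limma called 6 of 17 listed genes higher and 0 lower, beside 1.53% and 0.778% of all strand-clear genes. Of those called, Dcn, Col6a1, Col6a2 and Col6a3 were under 1 FPKM in both ES libraries. They were tested only because they are high in the derived libraries. Their calls and their place in the counts by size, in either library, are therefore no support for a change. In the 2-day library limma called 5 of 27 higher and 0 lower over all genes (median 0.57), beside 7.32% and 0.357% of all genes. Among the 5 were Tnc (tenascin C, log2 change 2.54), Dcn (2.19), Col5a2 (1.76) and Nid1 (nidogen 1, 1.44), with limma adjusted p from 0.016 to 0.0202. Tnc and Nid1 overlap opposite-strand genes.

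The list of AP-1, ETS and RUNX factors, which are known to bind MMP promoters, had 17 of 18 genes tested. In the EB library limma called 0 in the fit over all genes, and 5 had an unadjusted p under 0.05, beside 27.7% of all genes. By size 0 were 2-fold higher and 4 lower (median -0.27), beside 4.78% and 3.23% of all genes. Fos was at 7.31 FPKM in the EB library and 1.52 FPKM in the 2-day library, against 17.1 and 15.8 FPKM in ES cells. Fosb was at 1.95 and 0.294 FPKM, against 5.71 and 5.29 FPKM. Etv4, an ETS factor, was at 30.7 and 81.3 FPKM, against 68.4 and 73.3 FPKM. Among strand-clear genes limma called 0 of 8 higher and 3 lower in the EB library, namely these 3 genes, beside 1.53% and 0.778% of all strand-clear genes. In the 2-day library Fos (log2 change -2.79, limma adjusted p = 0.0249) and Fosb (-2.33, adjusted p = 0.0276) fell and 0 rose by limma over all genes (median 0.20). Those 2 lower calls stand beside 0.357% of all genes called lower and 7.32% called higher. By size 2 were 2-fold higher and 2 lower in the 2-day library, beside 12.4% and 2.88% of all genes. There 11 of the 18 listed genes were above both ES libraries. The 2 that were 2-fold higher were Fosl1 and Runx2. Fosl1, an AP-1 gene, was at 1.91 FPKM in the EB library and 4.52 FPKM in the 2-day library, against 1.85 and 1.43 FPKM in ES cells. Runx2 was at 0.576 and 2.60 FPKM, against 0.968 and 1.2 FPKM.

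Levels of markers of other cell types were as follows. The summed level of 20 fibroblast markers, none of them at 0 in all libraries, was 135 FPKM in the EB library and 358 FPKM in the 2-day library, against 187 to 190 FPKM in ES cells. In the EB library 0 of 18 tested were called by limma over all genes, and 9 had an unadjusted p under 0.05, beside 27.7% of all genes. By size 4 were higher and 2 lower, beside 4.78% and 3.23% of all genes. In the 2-day library limma called 4 of 18 higher and 0 lower, beside 7.32% and 0.357% of all genes. By size 8 were higher there, beside 12.4%. The 4 called include Dcn, as do the 4 higher by size in the EB library. The 8 higher by size in the 2-day library include Dcn and Pdgfra. Both genes were tested only because they are high in the derived libraries. The low EB sum rests on Vim (vimentin), at 41.2 FPKM in the EB library and 123 FPKM in the 2-day library, against 101 and 102 FPKM in ES cells. Without Vim the remaining markers summed to 94.2 FPKM in the EB library and 235 FPKM in the 2-day library, against 88.8 and 85.4 FPKM in ES cells, so the EB library was then above the ES pair. In the EB library 9 of the 20 markers were above both ES libraries and 7 below, against 18 above and 1 below in the 2-day library. The 8 contractile markers summed to 13.7 FPKM in the EB library and 440 FPKM in the 2-day library, against 167 to 180 FPKM in ES cells. Of 10 macrophage markers Aif1 and Tyrobp were at 0 in all libraries and the sum was 18.8 FPKM in the EB library and 21.2 FPKM in the 2-day library, against 14.5 to 14.8 FPKM, most of it Cd68. Csf1r was at 0.0579 FPKM in the EB library and 1.61 FPKM in the 2-day library, and Lyz2 at 0.10 and 1.36 FPKM, against 0 in both ES libraries. Csf1r overlaps Hmgxb3 on the opposite strand. Itgam was lower, at 0.0636 and 0.117 FPKM, against 0.134 and 0.293 FPKM in ES cells. Of the 10 macrophage markers 4 were above both ES libraries and 2 below in the EB library, and 6 above and 1 below in the 2-day library. The 10 trophoblast markers, with Tpbpa and Prl3b1 at 0 throughout, summed to 2.34 FPKM in the EB library and 17.5 FPKM in the 2-day library, against 2.25 to 2.83 FPKM, most of the 2-day sum being Prl2c2. Endothelial markers summed to 42.5 and 47.7 FPKM in the EB and 2-day libraries, against 34.8 to 36.2 FPKM, extraembryonic endoderm markers to 34.1 and 49.4 FPKM, against 41.9 FPKM, and bone and cartilage markers, with Ibsp at 0 throughout, to 21.8 and 20.5 FPKM, against 16.4 to 17.1 FPKM. The part of these cell types in the MMP and TIMP levels was not tested.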

How the data were processed

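RNA of 4 libraries was analysed as FPKM, deposited by the authors as 1 value per gene and library. The submitters' processing notes name Trimmomatic 0.36, STAR, Cufflinks and the build mm10; their options, the gene models and the use of strand are not stated there. Because FPKM is relative to each library's total, abundant transcripts depress the values of the rest. Gene names, positions and overlaps came from GENCODE M21 on mm10, which matched 47219 of 47633 identifiers.

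Genes that reached 1 FPKM in any library were compared as log2(FPKM + 1) by limma 3.58.1 in R 4.3.3 (moderated with a trend, all 4 libraries, 1 residual degree of freedom from the ES pair, Benjamini-Hochberg adjustment over all genes), and were called at adjusted p under 0.05 and an absolute log2 change of at least 1. Limma p-values measure only the spread between the ES samples, which may be technical. The size rule took FPKM at least 2-fold from both ES libraries. Depth was read from the most common low FPKM times exon length in single-transcript genes of at least 3000 nt, in bins of 0.05 on the log2 scale, taken as 1 fragment. A limma count of 0 over all genes does not show that genes did not differ. Members and lists were chosen with earlier results of these data known. Named genes were the members and, from each of 5 pathway lists, up to 4 called genes per comparison by size of change, otherwise 2 by the size rule or by level; the cluster genes and the 5 nearest Mmp3 were added. Mmp11, Mmp23, Fosl1, Runx2, the collagens of the closing section and the marker genes named were chosen after their values were seen. Sums without Timp3 and without Vim were added after seeing the data. Tables and intervals were made in Python 3.11.15 (scipy 1.17.1). 1 listed gene, Klkb1, was not analysed here, and 1 gene that the naming rule picks is not reported here.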

Additional observations from a re-analysis of the deposited data

Results flagged for a closer look

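Several genes stood on opposite sides of both ES libraries in the derived libraries, lower in the EB library and higher in the 2-day library; the difference was not tested. The EB minus 2-day difference on log2(FPKM + 1) was -0.58 for Mmp14 and -1.62 for Timp3. It was -4.27 for Thbs1, -3.47 for Cd44, -2.73 for Col5a2, -1.38 for Adam12, -1.38 for Etv4 and -1.06 for Adamts5. For Timp3 the opposite-strand gene Syn3 was at 0.288 FPKM in the EB library and 8.53 FPKM in the 2-day library, against 0.643 and 0.708 FPKM in ES cells.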

How the results depend on the processing

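The log2 differences of the 9 genes kept their sign in 72 of 72 values under a pseudocount of 0.1, median-of-ratios scaling and leaving out either ES library. For all 9 genes both derived libraries lay outside the ES pair. A smaller pseudocount or leaving out an ES library therefore could not change a sign, and only the scaling could. Its factors were 0.982 for EB, 1.034 for the 2-day library, and 0.9924 and 1.003 for ES 1 and ES 2. Of the 72 values, 21 moved by more than 1 SD of the ES pair, mostly upward with the smaller pseudocount (Mmp3 7.55 for EB and 4.36 for 2 days). The number of members at least 2-fold from both ES libraries was 4 for EB throughout and 6 to 7 for 2 days without an ES library. The number of genes called by limma for EB was 62, and 131 with a pseudocount of 0.1, 138 without a filter, 41 at a filter of 5 FPKM, 0 without a variance trend (4338 at unadjusted p under 0.05 in the fit with a trend) and 157 among strand-clear genes. The EB calls split as 62 higher and 0 lower, against 122 and 9 with the smaller pseudocount, 104 and 34 without a filter, 39 and 2 at 5 FPKM, and 104 and 53 among strand-clear genes. For 2 days it was 1203, and 395 at 5 FPKM and 207 among strand-clear genes, which are fewer genes tested. By the size rule the genes numbered 1256 for EB, 5136 without a filter, 359 at 5 FPKM, 394 among strand-clear genes and 1725 to 2372 without an ES library. For 2 days they numbered 2402, 7296, 669, 448 and 2926 to 3357. The limma test could not be run without an ES library, since no residual degree of freedom is left. No paired analysis was possible because the derived groups hold 1 library each. Genes under about 3 fragments, such as Mmp8, are at the limit of this depth.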

Other observations

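The 3 collagen VI genes, chosen after their values were seen, were all higher in the EB library, where Mmp3 was highest. Col6a1 was at 7.27 FPKM in the EB library and 3.13 FPKM in the 2-day library, against 0.764 and 0.866 FPKM in ES cells. Col6a2 was at 5.44 and 0.999 FPKM, against 0.477 and 0.658 FPKM, and Col6a3 at 8.68 and 0.805 FPKM, against 0.396 and 0.675 FPKM. Collagen VI forms beaded filaments in the matrix. All 3 genes were under 1 FPKM in both ES libraries and passed the filter only through the derived libraries. They were tested because they are high there, so the calls that follow are no support for a change. Over strand-clear genes limma called all 3 higher in the EB library (adjusted p 0.0176 to 0.0237), while over all genes it called none of them (adjusted p 0.135 to 0.139). Fibrillar Col5a2 was at 3.44 FPKM in the EB library and 28.4 FPKM in the 2-day library, against 7.72 and 7.64 FPKM in ES cells, and Col1a1 was at 4.47 and 12.1 FPKM, against 6.71 and 7.29 FPKM.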
